A study of Homo sapiens with 6 samples.

Results

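10 genes were examined that carried long DRIP-seq coverage in SH-SY5Y cells with the hairpin shNC3 and little or none in cells with the hairpin shT2: the keratin genes KRT8, KRT18 and KRT80, the cytokine and leukocyte genes IL4R, CXCL12 and LSP1, and RASA3, BCL9L, FAM83G and SLC5A10. They are 10 of the 20037 protein-coding genes in the RefSeq table and 10 of the 11771 that had a peak in at least 3 of the 6 samples. The genes were chosen by their peak-covered length, long in shNC3 and short or absent in shT2, so that difference is described here and no test of it is given. They stand at 8 loci, because KRT8 and KRT18 overlap, and so do FAM83G and SLC5A10.

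DRIP-seq pulls down DNA that is paired with RNA, using the antibody S9.6, and sequences it. SH-SY5Y is a human neuroblastoma line, and the series concerns depletion of TDP-43, a protein that binds RNA and DNA and is lost from the nucleus in amyotrophic lateral sclerosis. Each hairpin was delivered by a lentivirus in which a U6 promoter drives it, and infected cells were selected and kept in puromycin. There are 3 samples with shT2 and 3 with shNC3. From the names, shT2 is read as the knockdown of TDP-43 and shNC3 as its negative control. Both groups therefore carry the vector, a hairpin and the drug, and no uninfected cells were analysed here. Separate infections are not stated for replicates of a hairpin, so each hairpin stands for 1 selected population, and the p-values reflect no more than the scatter among the replicates, possibly a technical one. Neither RNA nor protein was measured in these samples.

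An R-loop is a stretch of DNA in which 1 strand is paired with RNA and the other is left single. R-loops form mostly behind a transcribing polymerase, over GC-rich starts and ends of active genes and along some gene bodies. Keratins 8 and 18 pair into the filaments of simple epithelia, interleukin 4 and CXCL12 are extracellular signals to leukocytes and other cells, and noradrenergic neuroblastoma cells such as SH-SY5Y are neither epithelial nor leukocytic.

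The lists held 42717 to 45390 peaks in the shNC3 samples and 49068 to 50971 in the shT2 samples. The pulldown depth recovered from the peak statistics was 1.65 to 1.79 fragments per base in shNC3 and 3.08 to 3.46 in shT2, so the samples with the shorter coverage at these genes were the deeper ones. Of 16 noradrenergic marker genes, 14 had a peak in every sample. Of 16 epithelial marker genes 11 had no peak in any sample, KRT7, KRT19 and CDH1 among them. Of 14 leukocyte marker genes 10 had none, PTPRC among them. The epithelial markers CLDN4, CLDN7, ESRP2 and RAB25 had a peak in every sample, and ESRP2 was called higher in shT2 (limma adjusted p = 0.015). The leukocyte markers CD79A, CD68, CSF1R and FCER1G had a peak in every sample as well. For comparison, 13036 of the 20037 protein-coding genes had a peak in at least 1 sample. Of 14 mesenchymal neuroblastoma markers 11 could be tested, and 7 of these were lower in shT2 and 0 higher (limma, adjusted p under 0.05), where 27.2% of all genes tested were lower and 24.2% higher. Their summed covered length was 61.9 to 67.4 kb in the shNC3 samples against 20.9 to 22.2 kb in the shT2 samples. Of these markers COL1A2 and SNAI2 had no peak in any sample, and PRRX1, CD44, YAP1, WWTR1 and RUNX1 had none in shT2. The noradrenergic markers ran the other way, with 8 higher and 1 lower of 14 tested and a summed length of 148 to 159 kb in shT2 against 117 to 126 kb in shNC3. The gene lists were chosen with earlier results of these data known, so these counts are no independent comparison with the share over all genes. The part of either marker list in the results on the 10 genes was not tested. In a population of cells, fewer cells with hybrids and fewer hybrids per cell cannot be told apart.

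Promoter sequence was at hand from RefSeq for 6 of the 10 genes, as 8 windows of 300 bp around annotated starts on GRCh38.p14, the assembly of build hg38. The 4 windows printed here show the contrast among the genes: those of CXCL12 and RASA3 lay wholly under peaks in all 3 shNC3 samples, that of FAM83G held the end of a peak, and that of IL4R held no peak. Each is written 5′ to 3′ on the strand of its gene, and capitals mark a recognition site of a restriction enzyme used to cut the DNA, which occurs in 1 of the 4.
CXCL12, chr10:44385048-44385347, minus strand: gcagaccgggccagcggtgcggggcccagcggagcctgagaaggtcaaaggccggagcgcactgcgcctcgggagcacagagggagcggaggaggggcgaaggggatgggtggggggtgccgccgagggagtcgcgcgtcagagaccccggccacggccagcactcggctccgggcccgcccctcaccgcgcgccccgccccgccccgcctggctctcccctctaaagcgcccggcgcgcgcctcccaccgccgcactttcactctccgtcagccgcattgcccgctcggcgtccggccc
RASA3, chr13:114132574-114132873, minus strand: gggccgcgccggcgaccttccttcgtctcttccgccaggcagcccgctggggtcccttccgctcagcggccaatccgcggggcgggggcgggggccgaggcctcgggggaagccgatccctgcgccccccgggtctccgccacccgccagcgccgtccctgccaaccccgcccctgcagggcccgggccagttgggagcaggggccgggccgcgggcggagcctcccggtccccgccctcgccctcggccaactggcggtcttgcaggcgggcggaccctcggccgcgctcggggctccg
FAM83G, chr17:19004715-19005014, minus strand: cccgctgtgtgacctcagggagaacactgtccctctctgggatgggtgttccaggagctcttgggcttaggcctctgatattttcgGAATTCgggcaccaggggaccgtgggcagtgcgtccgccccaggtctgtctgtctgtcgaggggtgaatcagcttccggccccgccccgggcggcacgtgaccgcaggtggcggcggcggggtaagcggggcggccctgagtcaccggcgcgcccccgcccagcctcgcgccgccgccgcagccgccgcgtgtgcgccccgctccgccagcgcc
IL4R, chr16:27313724-27314023, plus strand: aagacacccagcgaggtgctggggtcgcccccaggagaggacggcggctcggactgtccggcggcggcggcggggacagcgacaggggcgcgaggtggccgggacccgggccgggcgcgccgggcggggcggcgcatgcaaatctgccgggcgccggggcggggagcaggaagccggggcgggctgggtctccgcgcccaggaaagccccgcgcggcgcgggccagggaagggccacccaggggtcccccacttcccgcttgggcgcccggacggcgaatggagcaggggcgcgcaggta

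The 4 printed windows were GC-rich, and the other 4, given below, were less so. GC content was 77.0% at CXCL12, 80.7% at RASA3, 72.3% at FAM83G and 79.3% at IL4R, against a median of 58.7% over the 35116 promoter windows of the table. GC skew, the excess of G over C divided by their sum on the strand of the gene, was -0.05, -0.07 and -0.0046 at the first 3 and 0.18 at IL4R, with a median of 0.01 over the table. The window of IL4R thus had the highest G excess of the 4 and was the only one without a peak. This did not hold over all 8 windows, since that of KRT8 had a higher skew and a peak in 1 sample. None of the 8 windows held a peak in any shT2 sample. The other 4 windows were the KRT8 window at chr12:52926420-52926719, under a peak for 273 bp in shNC3 replicate 3 only, a second RASA3 window at chr13:114077906-114078205, covered in that sample only, and a pair for SLC5A10 with no peak in any sample. Their GC content was 50.7% at KRT8, 56.7% at RASA3, and 47.7% and 60.0% at SLC5A10. Their GC skew was 0.25 at KRT8, 0.13 at RASA3, and 0.06 and -0.19 at SLC5A10.

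LSP1 and BCL9L also hold microRNA genes under their shNC3 peaks. Their mature sequences from RefSeq are given 5′ to 3′ with the seed, bases 2 to 8, in capitals, because they place annotated small RNAs inside the stretches that were covered in shNC3.
hsa-miR-7847-3p, chr11:1880105-1880125, plus strand: cGUGGAGGacgaggaggaggc
hsa-miR-4492, chr11:118910765-118910781, plus strand: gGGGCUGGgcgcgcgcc
The first, in LSP1, lay under peaks in all 3 shNC3 samples, and the second, in BCL9L, in shNC3 replicates 2 and 3. Neither lay under a peak in an shT2 sample. The remaining microRNAs in the windows of the 10 genes, hsa-miR-4298 in LSP1 and hsa-miR-9898 in KRT8, lay under no peak in any sample.

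**Figure D1:**
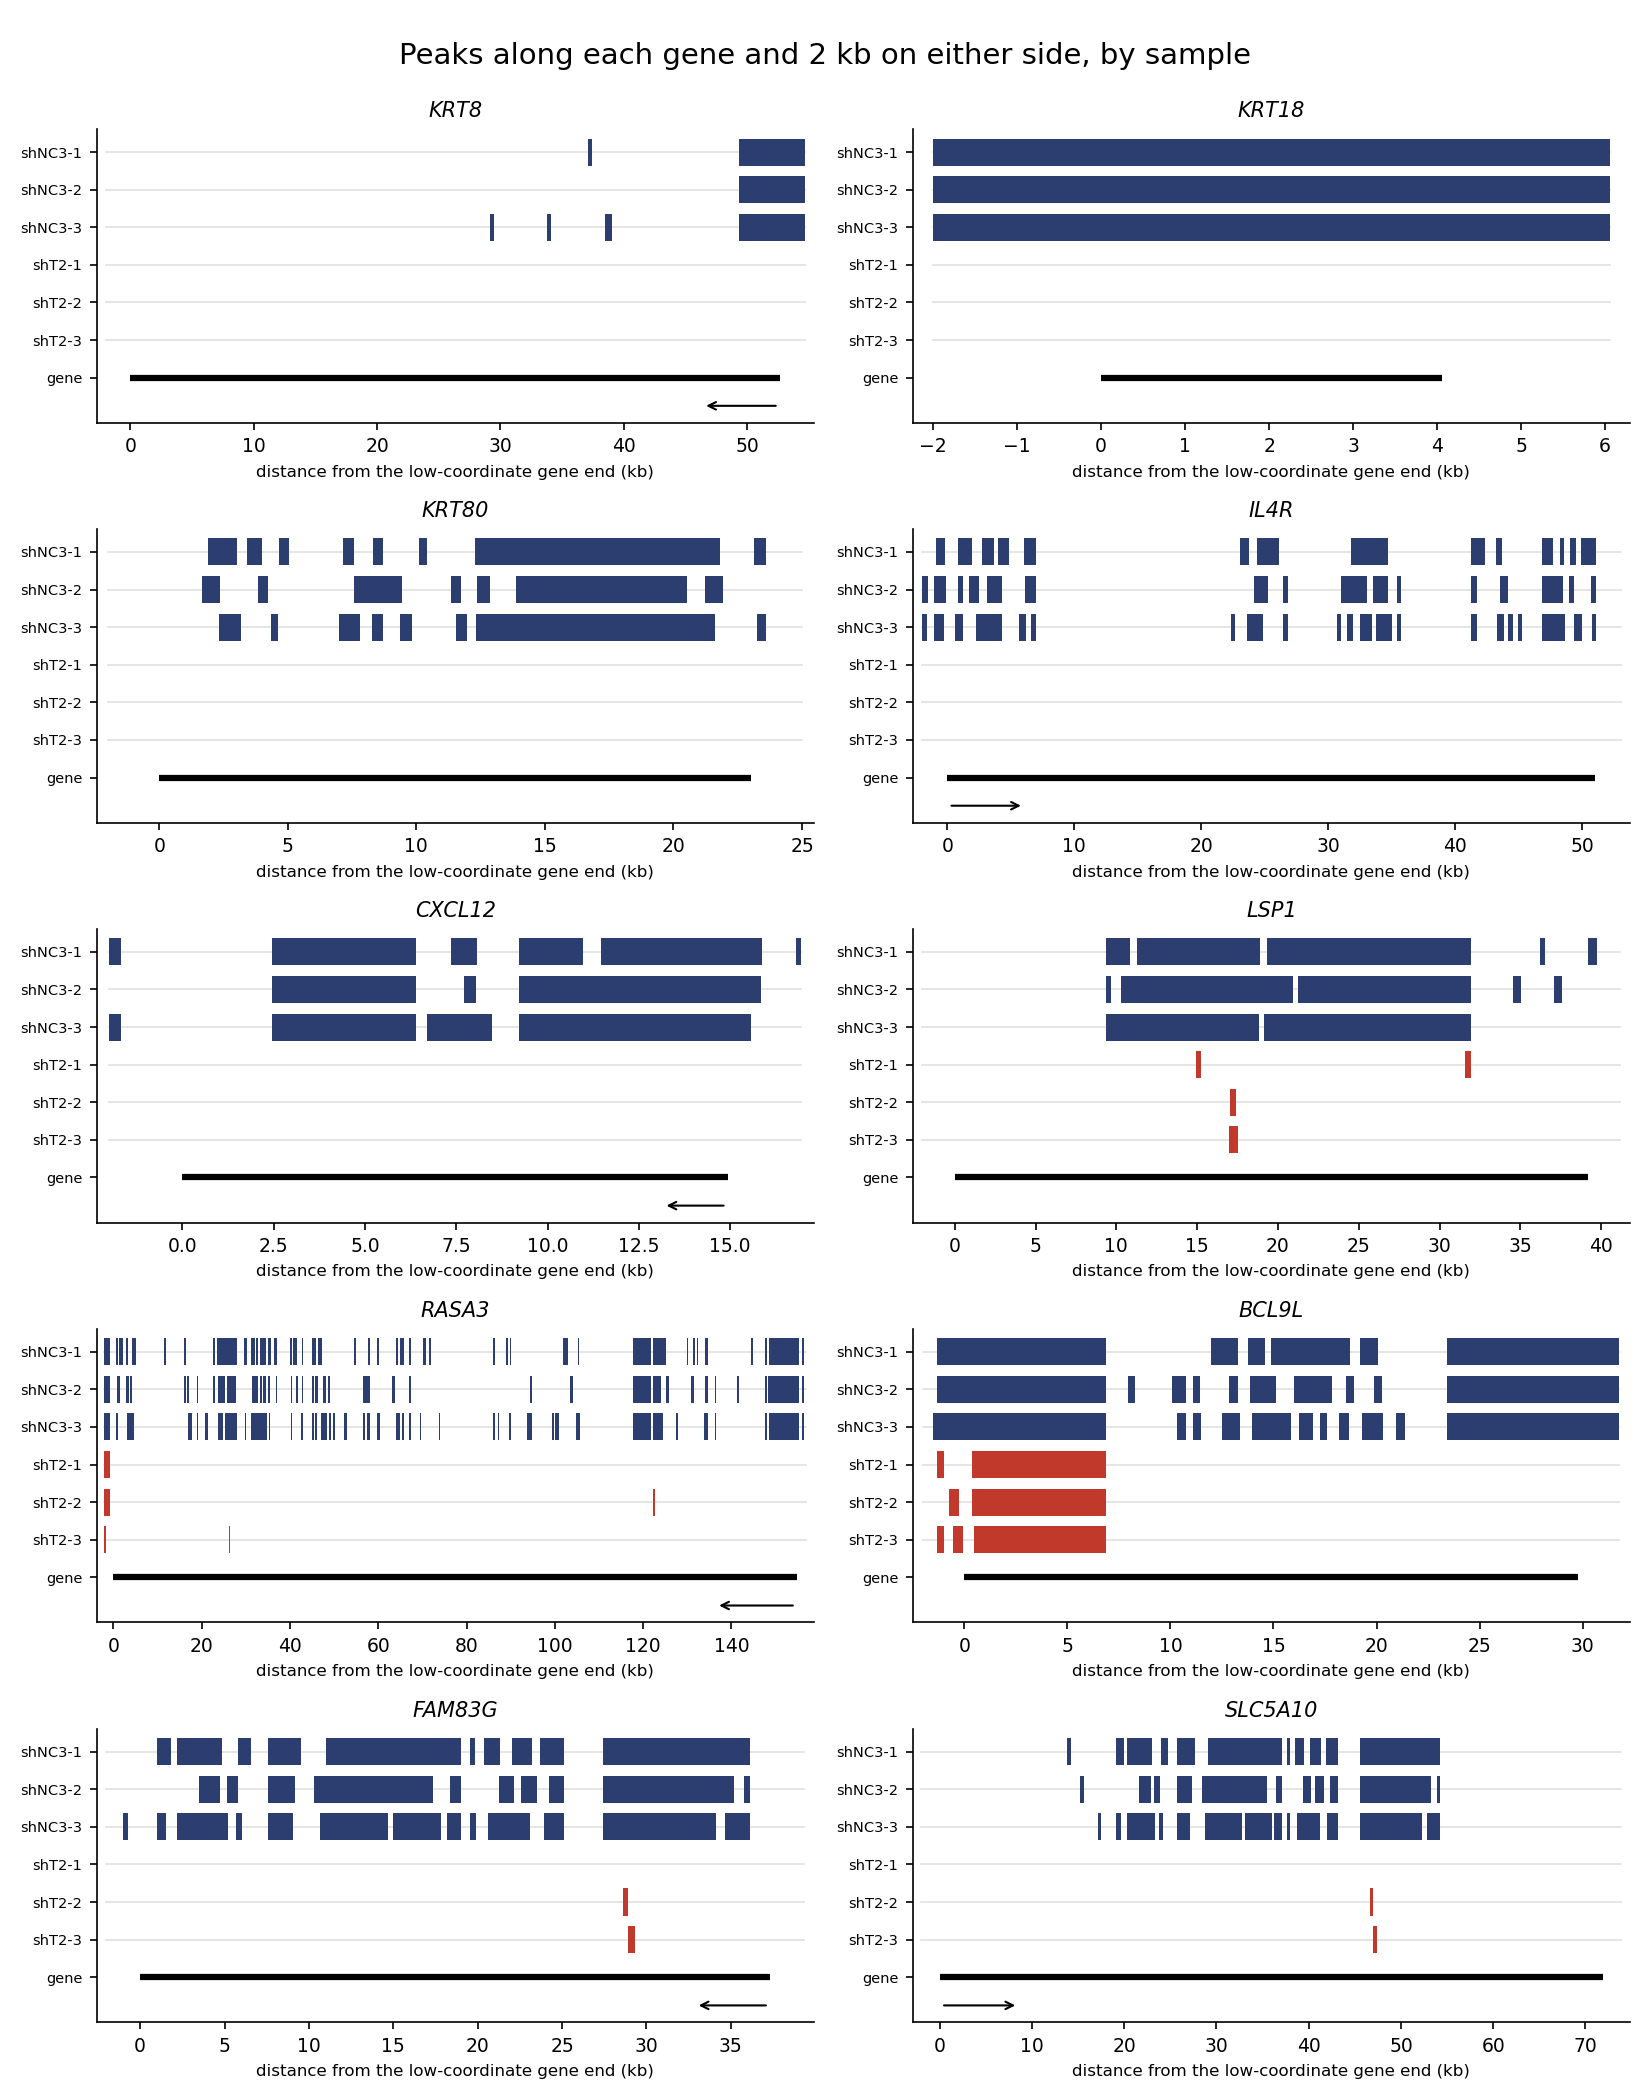
Peaks of the 10 genes in each sample, one panel per gene, with shNC3 samples in blue, shT2 samples in red and the gene span as a black bar; the horizontal axis is the distance in kb from the low-coordinate end of the gene, and an arrow gives the direction of transcription where the table had it. The shT2 rows are empty at KRT8, KRT18, KRT80, IL4R and CXCL12, and BCL9L keeps a peak over its low-coordinate end.

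Covered length is the number of bases under peaks in the gene span plus 2 kb on either side, divided by the total covered length of the sample and multiplied by the mean of the 6 totals. For positions along a gene, its span was divided into 3 equal segments. In all 10 genes each shT2 value lay below each shNC3 value. Over all genes tested, 37.4% showed such a separation in the same direction. In 5 of the 10 no shT2 sample had a peak, against 3.22% of all genes tested with no peak in shT2 and a peak in every shNC3 sample. Both shares only give the background, since the genes were chosen for this pattern. For the 5 genes with no shT2 peak no fold is given.

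At the 3 keratin genes no peak was called in any shT2 sample. KRT8, which encodes the type II keratin of simple epithelia (chr12:52897191-52949860), had 5.62, 5.96 and 6.74 kb covered in shNC3 replicates 1 to 3 and 0 kb in each shT2 sample. KRT18, which encodes its type I partner (chr12:52948855-52952906), had 8.11, 9.09 and 8.40 kb in shNC3 and 0 kb in each shT2 sample. The unscaled KRT18 length was the same in the 3 shNC3 samples, since its whole window was covered in each of them.

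A single peak accounted for this coverage. It ran from 52946580 to 52956705 on chromosome 12, 10126 bp, with the same first and last base in all 3 shNC3 samples and a fold enrichment at the summit of 12.0, 13.5 and 14.4. It covered KRT18 with both flanks and reached into KRT8 by 6.23% of that gene from its 5′ end. The rest of KRT8 held only 1, 0 and 3 further peaks of 306 to 540 bp in the 3 shNC3 samples. The middle of the KRT8 span was 1.22% covered on average in shNC3 and its 3′ segment was not covered. The shNC3 signal at KRT8 thus lay mainly at the 5′ end of its annotated span, in the peak that covers KRT18. The KRT8 start whose promoter window was at hand, chr12:52926420-52926719, lay outside that peak.

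KRT80, an epithelial type II keratin gene (chr12:52168996-52192014), stands apart from that pair on the same chromosome. Its covered length was 13.3, 12.6 and 13.5 kb in the shNC3 samples, over 8, 7 and 8 peaks, and 0 kb in each shT2 sample. The longest peak was 9499, 6672 and 9311 bp, with a fold at the summit of 8.85, 8.30 and 8.84. Coverage was uneven along the gene: in shNC3 the high-coordinate segment was 80.9% covered, the middle segment 53.8% and the low-coordinate segment 24.2%. The strand of KRT80 was not in the promoter table, so these are positions and not 5′ and 3′ parts. The shNC3 samples overlapped less base by base than at the KRT8 and KRT18 peak, with 7.97 kb covered in all 3 of the 16.9 kb covered in any.

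The other keratin genes were nearly empty. Of 51 further keratin genes, 50 had no peak in any of the 6 samples. Among all 20037 protein-coding genes, 13036 had a peak in at least 1 sample and the rest had none. The exception was KRT5, a basal epidermal keratin, with 0.311 kb in 1 shNC3 sample, and none of the 51 reached the minimum for testing. KRT7 and KRT78, which flank KRT80 and KRT8, were among the 50.

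Of the signalling genes, IL4R encodes the alpha chain of the interleukin 4 and interleukin 13 receptors (chr16:27313756-27364778). Its covered length was 14.3, 14.8 and 15.3 kb in shNC3 replicates 1 to 3 and 0 kb in each shT2 sample. The 3 shNC3 totals lay close together, but they were made of 14, 16 and 21 short peaks that did not sit on the same bases. Only 6.53 kb was covered in all 3 of the 22.1 kb covered in any, 29.5%, the lowest share among the 10 genes.

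No IL4R peak was wider than 2909 bp, and the highest fold at a summit was 7.07, 6.79 and 6.90 in the 3 shNC3 samples. The peaks were spread over the body, with 20.7% of the 5′ segment, 24.8% of the middle segment and 29.8% of the 3′ segment covered on average. The upstream flank was covered to 55.7% and the downstream flank to 3.60%. The window at the start that is printed above fell in the gap between the upstream peaks and the first peak of the body in each shNC3 sample.

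CXCL12 encodes the chemokine ligand of CXCR4 (chr10:44370165-44385097). Its covered length was 11.4, 12.3 and 12.9 kb in the shNC3 samples and 0 kb in each shT2 sample. Coverage was densest at the 5′ end, where 96.8% of the 5′ segment was covered in shNC3, against 61.6% of the middle segment and 50.9% of the 3′ segment. A peak of 3944 bp from 44372609 to 44376552 had both ends at the same base in all 3 shNC3 samples, with a fold of 16.8, 13.2 and 13.9. The peaks over the start were 4427, 6625 and 6350 bp and took in the whole printed promoter window.

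LSP1 encodes an actin-binding protein of leukocytes (chr11:1853084-1892263). Covered length was 22.6, 25.5 and 23.2 kb in shNC3 replicates 1 to 3 and 0.617, 0.305 and 0.548 kb in shT2 replicates 1 to 3, a difference of -4.63 on the log2(scaled bp + 500) scale. The middle segment was 97.2% covered in shNC3, by peaks of up to 12608, 10654 and 12796 bp that ended at 1885002 in each sample. What remained in shT2 was 4 peaks of 287 to 561 bp inside the same stretch, with folds of 3.29 to 4.33 against highest folds of 15.1 to 15.3 in shNC3. 1 of them, in shT2 replicate 1, ended at the same base, 1885002. Of the 10 genes, LSP1 had the best overlap between shNC3 samples after KRT18, with 84.5% of the bases covered in any sample covered in all 3.

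RASA3 encodes a GTPase-activating protein that turns off Ras and Rap (chr13:113977783-114132623). It is the longest of the 10 genes and had the most covered length, 41.9, 38.5 and 43.6 kb in shNC3 against 1.30, 1.54 and 0.606 kb in shT2, a difference of -4.71 on the log2 scale. The shNC3 coverage was split over 43, 37 and 42 peaks. It lay at both ends of the gene, with 31.4% of the 5′ segment and 29.0% of the 3′ segment covered and 11.3% of the middle segment. Peaks of 6901, 6887 and 6940 bp lay over the start, including the printed window.

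The widest RASA3 peaks kept in shT2 lay in the downstream flank. Inside the gene shT2 had a peak of 349 bp in replicate 2 and a peak of 323 bp in replicate 3, and none in replicate 1. In the 2 kb downstream of its 3′ end, 67.6% was covered in each shNC3 sample, and 67.6%, 67.6% and 14.9% in shT2 replicates 1 to 3. The shT2 peaks there were 1957, 2391 and 806 bp with folds of 5.21, 6.10 and 4.64. In shNC3 they were 6084, 6466 and 6245 bp with folds of 19.0, 20.0 and 20.8. Without the flanks the RASA3 difference was -5.83 on the log2 scale, and in windows around the gene ends it was -2.04. These peaks also reach into the window of the neighbour C13orf46.

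BCL9L encodes a co-activator of beta-catenin (chr11:118896136-118925926). It went against the description of little or no coverage in shT2: covered length was 6.58, 6.39 and 7.02 kb in shT2 and 23.5, 25.1 and 24.2 kb in shNC3, a difference of -1.79 on the log2 scale. The complete absence of shT2 peaks was confined to part of the gene in these 6 samples. At the other end coverage was kept but reduced, and the low-coordinate flank was 27.2% covered in shT2 and 68.9% in shNC3. The low-coordinate segment was 65.2% covered in shT2 and 70.3% in shNC3, while the middle segment was 0% against 57.6% and the high-coordinate segment 0% against 68.7%.

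The kept BCL9L peak ended at 118903000 in all 6 samples. It measured 6481, 6515 and 6422 bp in shT2, with folds of 12.7, 14.1 and 14.2, and 8181, 8181 and 8368 bp in shNC3, with folds of 22.2, 26.0 and 25.5. The recovered number of fragments at its summit was 55.0, 64.0 and 57.0 in shT2 and 61 to 69 in shNC3, from libraries of unequal depth. The peak at the other end of the gene started at 118919578 in all 3 shNC3 samples, was 10661, 9252 and 9113 bp long and had no counterpart in shT2.

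FAM83G encodes a scaffold that binds casein kinase 1 (chr17:18968789-19006116, minus strand), and SLC5A10 encodes a sodium-coupled sugar transporter (chr17:18950676-19022565, plus strand) within whose span FAM83G lies. The FAM83G values were 27.0, 24.9 and 26.7 kb in shNC3 and 0, 0.280 and 0.405 kb in shT2, a difference of -5.24 on the log2 scale. The SLC5A10 values were 27.4, 25.3 and 26.7 kb in shNC3 and the same as those of FAM83G in shT2, a difference of -5.25. They describe nearly the same peaks, and DRIP-seq peaks carry no strand, so the signal cannot be assigned to either gene.

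Seen from FAM83G the coverage ran along the whole gene, with 68.6% of the 5′ segment, 75.2% of the middle segment and 54.8% of the 3′ segment. Seen from SLC5A10 it lay inside the gene, with 65.6% of the middle segment, 14.2% of the 5′ segment, 24.8% of the 3′ segment and 0% of either flank. No peak lay on either SLC5A10 promoter window, while 213 bp of the FAM83G window were covered in each shNC3 sample. The 2 shT2 peaks, 308 and 415 bp with folds of 3.50 and 3.67, lay within the widest shNC3 peak over the 5′ part of FAM83G.

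**Figure D2:**
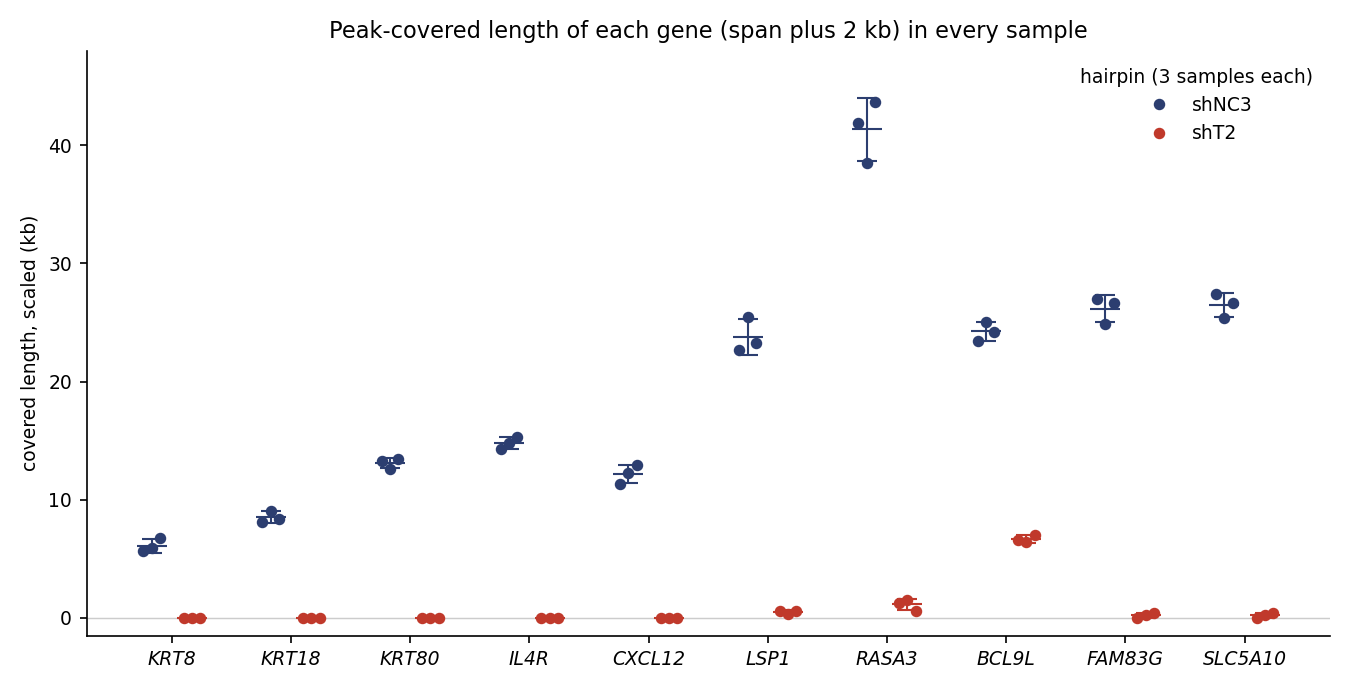
Covered length of each gene with 2 kb on either side, in kb after scaling, for 3 shNC3 samples (blue) and 3 shT2 samples (red); points are samples, the long bar is the mean and the short bars the SD. The shT2 points lie at 0 to 1.54 kb except for BCL9L, at 6.39 to 7.02 kb.

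By peak, the 10 genes held 290 distinct peaks in shNC3, namely 95, 90 and 105 in replicates 1 to 3, and 18 in shT2, namely 5, 6 and 7. Each of the 18 overlapped a peak of all 3 shNC3 samples, so no shT2 peak lay on bases of its own. The median width was 640 bp in shNC3 and 431 bp in shT2. For shNC3 this equals the median of all its peaks, 640 bp, and for shT2 that median was 651 bp. The median fold at the summit was 5.10 for the shNC3 peaks of these genes and 5.28 for all shNC3 peaks.

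The covered length rested on few wide peaks. There were 31 shNC3 peaks of at least 5 kb, and they held 50.2% of the covered length at these genes, against 36.9% for such peaks over all shNC3 peaks. The 3 shT2 peaks of that width were the kept BCL9L peak in each sample. At equal depth, where each list was reduced to peaks that would pass in the shallowest library, 289 of the 290 shNC3 peaks and 14 of the 18 shT2 peaks were left. With a fold of at least 5 at the summit, 156 and 7 were left, and genes without an shT2 peak rose from 5 to 8, with RASA3 and BCL9L as the exceptions.

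**Figure D3:**
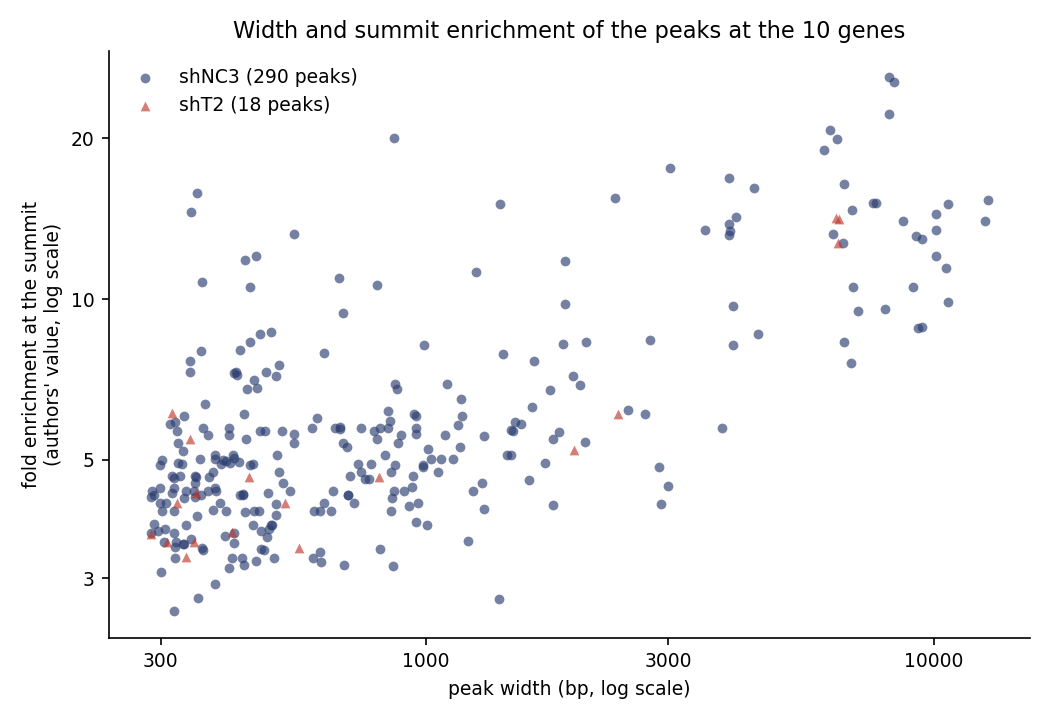
Width in bp and fold enrichment at the summit, the authors' value, of the 290 shNC3 peaks (blue circles) and 18 shT2 peaks (red triangles) at the 10 genes, both on log scales. The 3 shT2 peaks above 5 kb are the kept BCL9L peak, and the other 15 are under 2.5 kb.

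The nucleic acids had been cut with BsrGI, EcoRI, HindIII, SspI and XbaI before the pulldown, and the files could be checked for this where sequence was at hand. In the RefSeq promoter windows, a peak end found at the same base in at least 3 samples fell inside a recognition site of these enzymes in 506 of 508 cases, 99.6%. For ends found in 2 samples it was 161 of 205, 78.5%, and for ends found in 1 sample 262 of 8292, 3.16%. The sites searched were TGTACA for BsrGI (in 3.52% of windows), GAATTC for EcoRI (5.33%), AAGCTT for HindIII (5.84%), AATATT for SspI (6.96%) and TCTAGA for XbaI (5.02%), each its own reverse complement. At least 1 of them was present in 22.6% of windows.

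**Figure D4:**
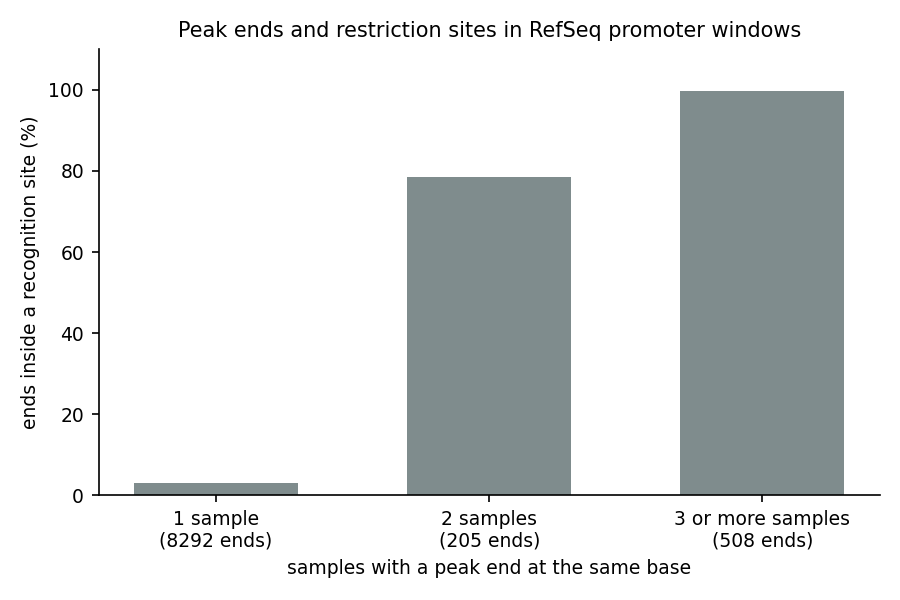
Share in percent of peak ends that lay inside a recognition site of the 5 enzymes, in RefSeq promoter windows, by the number of samples with a peak end at that base; the numbers of ends are under the bars. The share is 3.16% for ends of 1 sample and 99.6% for ends of 3 or more samples.

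The printed FAM83G window is an instance among the 10 genes. Its EcoRI site, in capitals, spans 19004923 to 19004928, and a peak ended at 19004927 in all 3 shNC3 samples. Of all peak ends at the 10 genes in shNC3, 80 of 580, or 13.8%, recurred at the same base in at least 3 samples, against 28.6% for all shNC3 peaks. Among the peaks of at least 5 kb it was 28 of 62, 45.2%, against 55.7% for all shNC3 peaks of that width. Samples of both hairpins counted here, and the 10 genes were chosen for few shT2 peaks. That choice itself lowers their shares, so the comparison shows nothing about their peak ends. The 10126 bp peak at KRT8 and KRT18, the 3944 bp peak of CXCL12, the 8181 bp peak of BCL9L and the 8692 bp peak of FAM83G in shNC3 replicate 1 had recurring bases at both ends. Apart from FAM83G these ends could not be set against cut sites, since no genome sequence was used here, and the extent of the hybrid within a peak was not measured.

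Recurring ends were shared between the hairpins at 4 bases only: 118903000 and 118894820 at BCL9L, 113977134 downstream of RASA3 and 1885002 at LSP1. At KRT8, KRT18, IL4R, CXCL12, FAM83G and SLC5A10 the recurring ends were found in shNC3 alone, and KRT80 had none. For KRT8, KRT18, IL4R and CXCL12 this followed from the choice of genes, since shT2 had no peak there. FAM83G and SLC5A10 had only the shT2 peaks of 308 and 415 bp.

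Neighbouring genes were compared on the bases outside the windows of the 10 genes, since shared peaks were already used to choose them. A peak that crossed the edge of a window was cut there, and its outer part was kept. The 23 neighbours, those with overlapping windows or else the nearest protein-coding gene on either side, comprised 20 protein-coding genes and 3 lncRNA genes. Of the 9 that could be tested, 3 were lower in shT2, 2 were higher and 4 were not called (limma, Benjamini-Hochberg adjusted p under 0.05). Over all genes in this fit, 27.1% were called lower and 24.2% higher. The lower genes include C13orf46, whose call is not independent of the choice of the 10 genes, for the reason given below. Peaks shared with a neighbour were 62 of the 290 in shNC3.

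The neighbours of RASA3 that fell lay on its low-coordinate side. C13orf46, whose window overlaps that of RASA3, had 25.6, 29.6 and 30.0 kb outside it in shNC3 and 6.34, 7.69 and 6.36 kb in shT2, or -1.99 ± 0.09 on the log2 scale (SE; adjusted p = 1.7e-05 by limma). GAS6, which encodes a ligand of the TAM receptor kinases and lies 113.7 kb away, had 21.3, 15.5 and 17.3 kb in shNC3 and 3.62, 3.67 and 2.02 kb in shT2, or -2.39 ± 0.21 on the log2 scale (SE; adjusted p = 0.00015 by limma). In both genes the groups did not overlap. On whole windows, 37.4% of all genes tested showed such a separation in the same direction. The C13orf46 values still hold the outer part of the peaks downstream of RASA3, which were 6084, 6466 and 6245 bp wide in shNC3. Its p-value is therefore not independent of the choice of the 10 genes. CFAP97D2 on the other side of RASA3 had no peak in any sample. The lncRNA LOC107987192 lies within RASA3 and had 7.39, 8.23 and 7.60 kb in shNC3, all inside the RASA3 window, and 0 kb in shT2. The other lncRNA genes in that window, RASA3-IT1 and LOC124903221, had up to 1.17 and 0.472 kb in an shNC3 sample and none in shT2.

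The remaining neighbours had smaller differences or no peaks. TNNT3, a fast skeletal troponin gene 27.3 kb from LSP1, had 0.344, 1.47 and 0.348 kb in shNC3 and 0 kb in shT2 (limma adjusted p = 0.034), and the call was lost without any 1 shT2 sample (adjusted p = 0.081, 0.088 and 0.082 by limma without replicates 1, 2 and 3) and with a pseudocount of 2000 bp (0.059). EIF4B, a translation initiation factor gene next to KRT8 and KRT18, was higher in shT2, with 15.0 ± 0.398 against 11.6 ± 1.48 kb (SD, n = 3 each; limma adjusted p = 0.012). DDX6, an RNA helicase gene 104.4 kb from BCL9L, was higher as well, with 17.9 ± 0.634 against 13.0 ± 1.66 kb (limma adjusted p = 0.0053). Both calls were lost in windows around the gene ends (limma adjusted p = 0.13 and 0.14). SMIM41 near KRT80, NSMCE1 near IL4R, ZNF32 near CXCL12 and PRPSAP2 near SLC5A10 were not called, with log2 differences of -0.14, -0.14, -0.0077 and 0.28. PRPSAP2 was called higher without scaling (0.43), for peaks at or above 5-fold (2.39), in windows around the gene ends (0.79) and without shNC3 replicate 2 (0.37), with limma adjusted p of 0.0079, 0.012, 0.0013 and 0.023. No peak was found in any sample at KRT78, KRT7, IL21R, TMEM72, TNNI2, CFAP97D2, UPK2, GRAP and GRAPL, so a loss there could not be seen. The other overlapping neighbours had too few samples with peaks outside the windows to be tested. PRR33, which overlaps LSP1, had 0, 0.781 and 0.427 kb outside the LSP1 window in shNC3 and 0 kb in shT2. Over its whole window, shared bases included, it had 0.845, 1.91 and 0.427 kb in shNC3 and 0 kb in shT2. CXCR5, a chemokine receptor gene, overlaps the kept end of BCL9L. Outside the BCL9L window it had 0.313, 0 and 0.589 kb in shNC3 and 0 kb in shT2. Its whole window, shared bases included, held 5.31, 5.61 and 5.97 kb in shNC3 and 3.48, 3.48 and 3.88 kb in shT2.

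Genes of the pathways around the 10 genes were counted from 9 lists that exclude them, 215 genes with 111 tested. Of these 45 were lower in shT2, 17 higher and 49 not called, where 27.2% of all genes tested were lower and 24.2% higher (limma, Benjamini-Hochberg adjusted p under 0.05). The median log2 difference was -0.17, against -0.08 over all genes tested. These lists too were chosen with earlier results of these data known. The counts depended on scaling: without scaling to total covered length 24 were lower and 19 higher, and the median of all genes moved from -0.08 to 0.06.

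**Figure D5:**
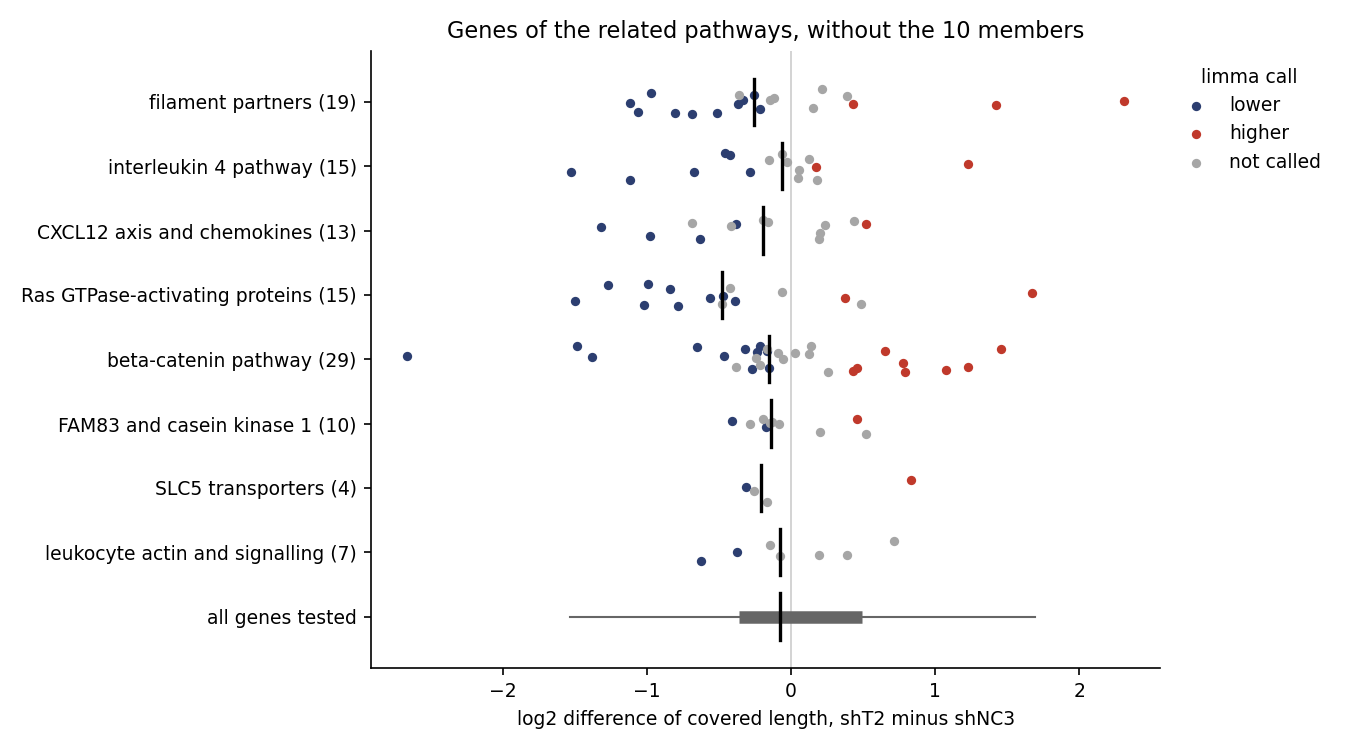
Log2 difference of covered length, shT2 minus shNC3, for the tested genes of 8 lists (number tested in brackets), coloured by the limma call, with the list median as a black bar; the bottom row gives the 5th, 25th, 50th, 75th and 95th percentile of all genes tested. Apart from FZD4 the list genes lie above the values of the 10 genes, and the medians lie between -0.48 and -0.06.

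In a list of other intermediate filament, lamin and filament-linked genes, 10 of 19 tested genes fell, 3 rose and 6 were not called. The median was -0.26. NEFH, the heavy neurofilament gene, rose from 1.38 ± 0.500 kb in shNC3 to 8.64 ± 1.18 kb in shT2 (SD, n = 3; log2 difference 2.31). LMNB2, a nuclear lamin gene, fell from 23.4 ± 0.588 to 16.2 ± 1.01 kb, and TRADD, an adaptor that binds keratin 18, from 8.00 ± 0.388 to 4.38 ± 0.465 kb.

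In the interleukin 4 pathway 6 of 15 tested genes fell, 2 rose and 7 were not called, with a median of -0.06. JAK1, a kinase bound by the receptor, rose from 5.85 ± 0.158 to 14.4 ± 0.918 kb (log2 difference 1.23), a call that was lost in windows around the gene ends. Its relative TYK2 fell from 19.6 ± 1.47 to 14.1 ± 0.0716 kb, and the feedback inhibitor SOCS3 from 7.89 ± 0.172 to 5.75 ± 0.223 kb. All 3 had peaks in every sample. The TYK2 call was lost in windows around the gene ends and the SOCS3 call in the gene span without flanks.

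In the CXCL12 axis 4 of 13 tested genes fell, 1 rose and 8 were not called, with a median of -0.20. GNAI2, a G protein subunit gene of chemokine receptors, fell from 21.3 ± 1.33 to 13.5 ± 0.672 kb, a call lost in windows around the gene ends. VAV2, an exchange factor gene, fell from 88.8 ± 5.54 to 67.9 ± 2.80 kb, a call lost without scaling. GNB1, another G protein subunit gene, rose from 28.1 ± 1.24 to 40.6 ± 1.44 kb, but its difference was -0.14 in windows around the gene ends.

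The list of Ras GTPase-activating genes also held IQGAP scaffold genes and SPRED genes. Of its genes 9 of 15 tested fell, 2 rose and 4 were not called. The median was -0.48, the lowest of the 8 lists with tested genes. The number that fell was 4 to 10 over the other settings tried. IQGAP3, 1 of the scaffold genes, fell from 20.5 ± 1.12 to 10.1 ± 1.53 kb. RASAL1 rose from 0.469 ± 0.203 to 2.56 ± 0.441 kb.

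In the beta-catenin pathway 11 of 29 tested genes fell, 8 rose and 10 were not called, with a median of -0.15. FZD4, a Wnt receptor gene, had 3.21, 2.37 and 2.50 kb in shNC3 and no peak in any shT2 sample. The co-receptor gene LRP5 rose from 23.1 ± 2.50 to 54.6 ± 2.58 kb. The co-repressor gene TLE1 rose from 4.57 ± 0.183 to 10.2 ± 0.163 kb, with a difference of -0.14 in windows around the gene ends.

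The last lists were small. Of 10 tested FAM83 and casein kinase 1 genes 2 fell, CSNK1G2 from 28.2 ± 0.380 to 21.1 ± 0.344 kb and CSNK1D from 35.5 ± 1.18 to 31.4 ± 1.08 kb. The CSNK1D call was lost without scaling (-0.02), for peaks at or above 5-fold (-0.08) and in windows around the gene ends (-0.15). CSNK1A1, which is also in the beta-catenin list, rose from 5.46 ± 0.886 to 7.62 ± 0.660 kb (limma adjusted p = 0.016), and missed the threshold without shT2 replicate 1, shNC3 replicate 1 or shNC3 replicate 2 (limma adjusted p = 0.057, 0.050 and 0.051). The CSNK1A1 difference also moved from 0.45 to 0.20 in the gene span without flanks (limma adjusted p = 0.14) and was not called in windows around the gene ends (limma adjusted p = 0.066). Of 4 tested SLC5 transporter genes SLC5A2 fell from 6.93 ± 0.407 to 5.48 ± 0.207 kb, a call lost without scaling and in the gene span without flanks. SLC5A11 had 0.667, 0.266 and 0.290 kb in shT2 and none in shNC3 (limma adjusted p = 0.033), and missed the threshold without any 1 sample other than shT2 replicate 2 (limma adjusted p of 0.060 to 0.11) and with a pseudocount of 2000 bp (0.059). Of 7 tested leukocyte actin and signalling genes 2 fell, FERMT3 from 15.2 ± 0.532 to 11.6 ± 0.184 kb and MYO1G from 5.37 ± 0.149 to 3.35 ± 0.769 kb. The MYO1G call was lost without scaling (-0.49), for peaks at or above 5-fold (-0.96) and in windows around the gene ends (-0.26).

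Among the genes whose 6 values were most like the mean of the 10, by Euclidean distance over the 6 samples on the log2(scaled bp + 500) scale, were RELB at 0.625, PLXND1 at 0.801, COL1A1 at 0.901 and NECTIN2 at 1.11. RELB had 21.8, 21.2 and 22.9 kb in shNC3 and 0.310, 0.294 and 0.367 kb in shT2. PLXND1 had 17.6, 17.6 and 16.3 kb in shNC3 and 0.278, 0 and 0.293 kb in shT2. COL1A1, which is also in the mesenchymal marker list above, had 13.5, 15.0 and 14.3 kb in shNC3 and 0.322, 0 and 0.324 kb in shT2. These genes were found by likeness to the 10, so their own difference between the hairpins is no separate result.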

How the data were processed

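The deposited files were 6 lists of narrow peaks, called per sample. Bowtie2 2.4.4, SAMtools, MACS2 2.2.6 and build hg38 are named in the submitters' processing notes. Each list gives, per the deposited columns, a position, an integer score, the fold enrichment at the summit (a linear ratio), the −log10 p-value and −log10 q-value and the offset of the summit. All lists stop at a q-value of 0.01. Which control library was set against the pulldown is not known from these sources. The score was not used.

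The members and the gene lists were chosen with earlier results of these data known. Covered length per protein-coding gene (RefSeq GRCh38.p14, span plus 2 kb) was brought to the mean of the samples' totals, and limma 3.58.1 under R 4.3.3 fitted log2(scaled bp + 500) (trend, robust, no covariates, Benjamini-Hochberg over 11771 genes); the fit was tested on simulated data. Log2 differences understate change at short coverage. For neighbours, bases in the windows of the 10 genes were first removed. Depth and summit fragments were recovered from fold and p-value together. Distances to cut sites along the genes were planned but no genome was used here, so sites were searched in promoter windows only. List genes are named by a rule: up to 3 called genes of smallest p, and up to 3 more where a list has a call in the other direction; 2 genes that the naming rules select are not reported here. Same-numbered samples did not deviate together (correlations -0.02, -0.06 and -0.0078), so numbers were not used as pairs. Positions are 1-based.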

Additional observations from a re-analysis of the deposited data

How the results depend on the processing

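Without scaling to total covered length, 2044 genes in place of 3199 were lower in shT2, 24 list genes in place of 45 were, and 60.9% of called genes in place of 47.1% were higher. With peaks of at least 5-fold enrichment 1955 genes were lower and 1846 in place of 2843 higher, and in windows around gene ends 1572 were higher, 37.2% of those called, with 11 list genes in place of 17 and 1 neighbour in place of 2. Members without an shT2 peak were 8 in place of 5 under each of these last settings. Leaving out each sample in turn, with the tested genes kept, gave 2647 to 2977 genes lower and 2339 to 2747 higher, 35 to 42 list genes lower and 12 to 16 higher, 2 to 3 neighbours lower and 2 to 3 higher, and 10 and 5 members with separate groups and without an shT2 peak each time. Separate groups were found for 8 members in windows around gene ends, where LSP1 and SLC5A10 have little coverage. Signs turned for GNB1 (-0.14) and TLE1 (-0.14) in windows around gene ends, for NSMCE1 without scaling (0.0023) and at 5-fold (0.19), and for ZNF32 without scaling (0.13), at equal depth (0.024), in the gene span (0.14) and without 1 sample (-0.095 to 0.066); the cause was not tested. Of 148 member differences under other settings 0 turned sign, from -7.22 to -1.60, and 42 moved by more than the replicate SD. Of 460 values of other named genes 415 kept direction and side of the threshold. The replicate block, with sample numbers as a factor, gave 2866 genes lower and 2825 higher, and SLC5A11 missed the threshold (limma adjusted p = 0.063). Depth limits the short shT2 peaks, of which 4 of 18 would not pass at the depth of the shallowest library.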
